A study of Mus musculus with 6 samples.

Results

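A set of 55 interferon-stimulated genes and interferon regulators was followed in peritoneal macrophages of WT and FOXO3 KO mice. The genes were named in a fixed list, without a threshold on any measured value, and were matched by symbol in the deposited table of 54648 gene symbols. All 55 were in the table with at least 1 count. Of these, 54 had enough counts to be tested, among 15608 genes tested in all. The remaining one, Ifnb1, had 1 count in the whole experiment.

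RNA-seq was run on 3 WT and 3 FOXO3 KO mice to ask which transcripts differ in macrophages that lack FOXO3, a forkhead transcription factor with roles in immunity and metabolism. All mice were C57BL/6, aged 6 to 8 weeks and kept on standard chow, and the KO animals were homozygous. The study names both males and females, and the labels do not give the sex of each sample. Both groups were injected intraperitoneally with 3% thioglycollate, an irritant that draws monocytes into the abdominal cavity where they mature into macrophages, and peritoneal cells were harvested 4 days later. No sort of the harvested cells is described, and neither group was described as given interferon, virus or a bacterial product before RNA was taken. The sources used here name no Cre driver and do not say whether animals were pooled.

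Type I interferons are made when sensors of foreign RNA or DNA signal through the kinase TBK1 to the transcription factors IRF3 and IRF7. Secreted interferon binds the receptor pair IFNAR1 and IFNAR2, and the transcription factor complex ISGF3, which holds STAT2 and IRF9, then binds a DNA element called the ISRE in the promoters of antiviral genes. Interferon gamma acts at a second element, GAS, and is the main inducer of the guanylate-binding proteins (GBPs) and immunity-related GTPases (IRGs) with which macrophages attack vacuoles that hold parasites or bacteria. FOXO3 is known in macrophages as a repressor of the Irf7 gene.

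Promoters of the set were read from RefSeq (GRCm38.p6), in windows from 250 bases before to 50 bases after each start site. Windows were found for 45 of the 55 genes. Some genes had several windows, and a gene was counted if any of its windows held the core. The ISRE core, searched on both strands as GAAA repeated after 2 free bases, was held by 23 of the 45 genes (51.1%), compared with 3.99% of the 27025 genes in the RefSeq table. The GAS core, TTCNNNGAA on either strand, was held by 14 genes (31.1%) against 9.55% of all genes. A forkhead core, GTAAACA, was held by 2 genes (4.44%), Rsad2 and Gbp3, against 4.05% of all genes. The window found for Irf7 matched a minor transcript start only, so the search did not cover its other start sites. Of the 8 GBP and IRG genes with a window, 7 held an ISRE core and 4 a GAS core. These are matches of letters in a short window and say nothing about binding.

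Promoters of 3 genes are shown, Bst2 because its groups did not overlap and Gbp2 and Igtp as members of the GTPase group that varied most, as windows of 300 bases written 5′ to 3′ in the direction of transcription with the ISRE cores in capitals. In Bst2, at chr8:71537423-71537722 on the minus strand, a pair of ISRE cores overlaps, and a GAS core overlaps the first of them. In Gbp2 (chr3:142620413-142620712, plus strand) the core lies on the opposite strand and reads as its reverse complement, and in Igtp (chr11:58199306-58199605, plus strand) it lies 34 to 25 bases before the start. Igtp also holds a GAS core, not capitalized, from base -45 to base -37 relative to the start.
Bst2: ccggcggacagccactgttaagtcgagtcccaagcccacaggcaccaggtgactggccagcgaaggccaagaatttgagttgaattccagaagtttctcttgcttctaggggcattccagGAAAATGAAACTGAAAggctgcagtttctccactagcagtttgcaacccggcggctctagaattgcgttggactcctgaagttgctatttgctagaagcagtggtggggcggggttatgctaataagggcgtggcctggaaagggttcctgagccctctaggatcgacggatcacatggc
Gbp2: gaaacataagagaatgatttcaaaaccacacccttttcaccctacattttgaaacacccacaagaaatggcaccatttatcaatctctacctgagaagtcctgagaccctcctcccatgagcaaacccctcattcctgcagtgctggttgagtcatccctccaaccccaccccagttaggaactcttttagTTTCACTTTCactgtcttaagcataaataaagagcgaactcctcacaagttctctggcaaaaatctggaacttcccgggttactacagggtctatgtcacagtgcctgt
Igtp: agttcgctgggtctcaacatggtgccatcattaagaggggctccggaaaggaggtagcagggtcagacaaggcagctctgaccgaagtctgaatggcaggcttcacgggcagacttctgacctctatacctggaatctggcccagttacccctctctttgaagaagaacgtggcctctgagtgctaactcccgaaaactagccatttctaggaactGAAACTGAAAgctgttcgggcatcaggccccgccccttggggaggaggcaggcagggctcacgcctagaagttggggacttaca

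The neighbours Ifit3 and Ifit3b, and likewise Oas1a and Oas1g, had promoter stretches that matched nearly letter for letter. They are shown as near copies of each other. Likeness of promoters does not tell whether reads are shared, and the identity of their transcripts was not measured. Stretches of 120 bases around the ISRE cores (capitals) were taken from Ifit3 (chr19:34583335-34583454, plus strand), Ifit3b (chr19:34607731-34607850, plus strand), Oas1a (chr5:120907478-120907597, minus strand) and Oas1g (chr5:120887564-120887683, minus strand). The Ifit3 and Ifit3b stretches matched at 120 of 120 bases and those of Oas1a and Oas1g at 118 of 120.
Ifit3: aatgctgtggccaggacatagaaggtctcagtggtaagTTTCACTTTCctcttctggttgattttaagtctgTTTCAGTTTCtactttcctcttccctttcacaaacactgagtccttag
Ifit3b: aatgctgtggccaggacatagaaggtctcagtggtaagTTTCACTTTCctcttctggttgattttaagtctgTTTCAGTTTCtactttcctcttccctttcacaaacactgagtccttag
Oas1a: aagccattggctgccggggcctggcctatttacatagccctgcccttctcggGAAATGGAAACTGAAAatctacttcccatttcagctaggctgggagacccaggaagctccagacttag
Oas1g: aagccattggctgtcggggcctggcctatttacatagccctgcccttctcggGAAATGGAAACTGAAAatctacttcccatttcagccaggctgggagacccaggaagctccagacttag

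Library totals were between 28083572 and 36424331 estimated counts, and 3 counts, the floor used here for a gene listed at 0, correspond to 0.0831 to 0.109 CPM (CPM, counts scaled to a common TMM-adjusted library size). Intervals and floors cover counting error and the spread of these samples only. Foxo3 itself checks the labels. It stood at 117, 107 and 73.1 CPM in WT 1, 2 and 3 and at 4.71, 104 and 4.29 CPM in FOXO3 KO 1, 2 and 3, so the library labelled FOXO3 KO 2 was at the WT level while the other two KO libraries were far below every WT library. Counts, medians and the log2 fold changes of most genes named are therefore given over all 6 libraries and over 5 libraries without FOXO3 KO 2. A log2 fold change with no set of libraries beside it is over 6. The Foxo3 log2 fold change (FOXO3 KO minus WT throughout) was -1.40 ± 1.22 over 6 libraries (adjusted p = 0.859) and -4.46 ± 0.29 (SE) over 5 (adjusted p = 0.105, edgeR quasi-likelihood test). A two-sided exact permutation test gave p = 0.20 in both. Over 5 libraries 0.20 was the smallest p that test could give, so it could not show a difference there, and over 6 the smallest was 0.10. Values after ± are standard errors from the edgeR fit, over 3 WT and 3 KO libraries or, without FOXO3 KO 2, over 3 and 2.

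Further splits touch the members. WT 3 stood apart from every other library over all genes, with chi-square per degree of freedom of 119 to 198 in its 5 pairs and 13.1 to 40.0 in the 10 pairs without it, and with correlations of log2 values of 0.929 to 0.956 against 0.986 or more. WT 3 and FOXO3 KO 3 held 31162 and 37681 counts of Xist, the RNA of the inactive X chromosome, and the other libraries held 2 to 5, so values within this split are given where they bear on a result. The 10 macrophage markers checked (such as Adgre1, Csf1r and Cd68) summed to 13918 to 18710 CPM in WT and 15507 to 17398 CPM in FOXO3 KO, and all 10 had counts in every library. All 8 B cell markers were lower in FOXO3 KO in the fit over 6 libraries. Their sums were 823, 444 and 3611 CPM in WT and 198, 390.1 and 762 CPM in KO. All 8 T cell markers were lower as well (29.8, 28.7 and 128 CPM in WT, 18.9, 26.9 and 49.5 in KO). So were all 6 mast cell markers (222, 127 and 780.3 CPM in WT, 203, 99.9 and 293 in KO). WT 3 had the highest sum of each of these lists. The 8 markers of plasmacytoid dendritic cells, a known source of type I interferon, had WT sums of 144, 102 and 296 CPM beside KO sums of 106, 108 and 142 CPM. All 6 conventional dendritic cell markers were higher in FOXO3 KO (36.2 to 53.2 CPM against 47.3 to 80.4 CPM), as were the 4 neutrophil markers that could be tested (sums over 8 markers of 120.3 to 161.9 CPM against 159.0 to 201.1 CPM, with Ly6g, Mpo, Elane and Camp at 0 in at least 1 library). The 5 red blood cell markers tested were all higher in FOXO3 KO over 6 libraries. Their WT sums were 24.5, 9.63 and 27.0 CPM beside KO sums of 117, 9.23 and 182 CPM. FOXO3 KO 2 was thus just below the lowest WT library, WT 2, and far below FOXO3 KO 1 and 3. The 6 NK cell markers summed to 27.7 to 49.5 CPM in WT and 41.6 to 44.3 in KO. No marker passed the adjusted test over 6 libraries, and the part of these cells in the members' values was not tested. In such bulk samples fewer cells of a type and less RNA per cell cannot be told apart.

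None of the 54 tested interferon genes passed the test for a difference between WT and FOXO3 KO after adjustment over all genes. With calls requiring both a fold over 1.5 and an adjusted p under 0.05, the quasi-likelihood test called 0 of 54 members over 6 libraries, where it called 0% of all genes, and 0 of 54 over 5 libraries, again beside 0% of all genes. DESeq2, which called 0.794% of all genes over 6 libraries and 0.666% over 5, also called 0 members in both. At an unadjusted p under 0.05, 2 members were higher in FOXO3 KO over 6 libraries (Irf7 and Bst2, 3.70% of the 54, beside 4.04% of all genes) and 0 were lower (1.65% of all genes). Over 5 libraries no member passed in either direction (3.05% and 1.26% of all genes). The members' shares were at or below the background in each of these counts.

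The levels of the set leaned slightly upward in FOXO3 KO over 6 libraries and not over 5. The log2 fold change was above 0 for 35 of 54 members over 6 libraries (64.8%, beside 48.8% of all genes tested) and for 26 of 54 over 5 libraries (48.1%, beside 47.6%). The median log2 fold change of the members was 0.12 over 6 libraries and -0.06 over 5, beside -0.01 and -0.02 over all genes. Dropping FOXO3 KO 2 turned 10 members from higher to lower and 1 from lower to higher. The median moved between 0.27 without WT 3 and -0.06 without FOXO3 KO 2.

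**Figure D1:**
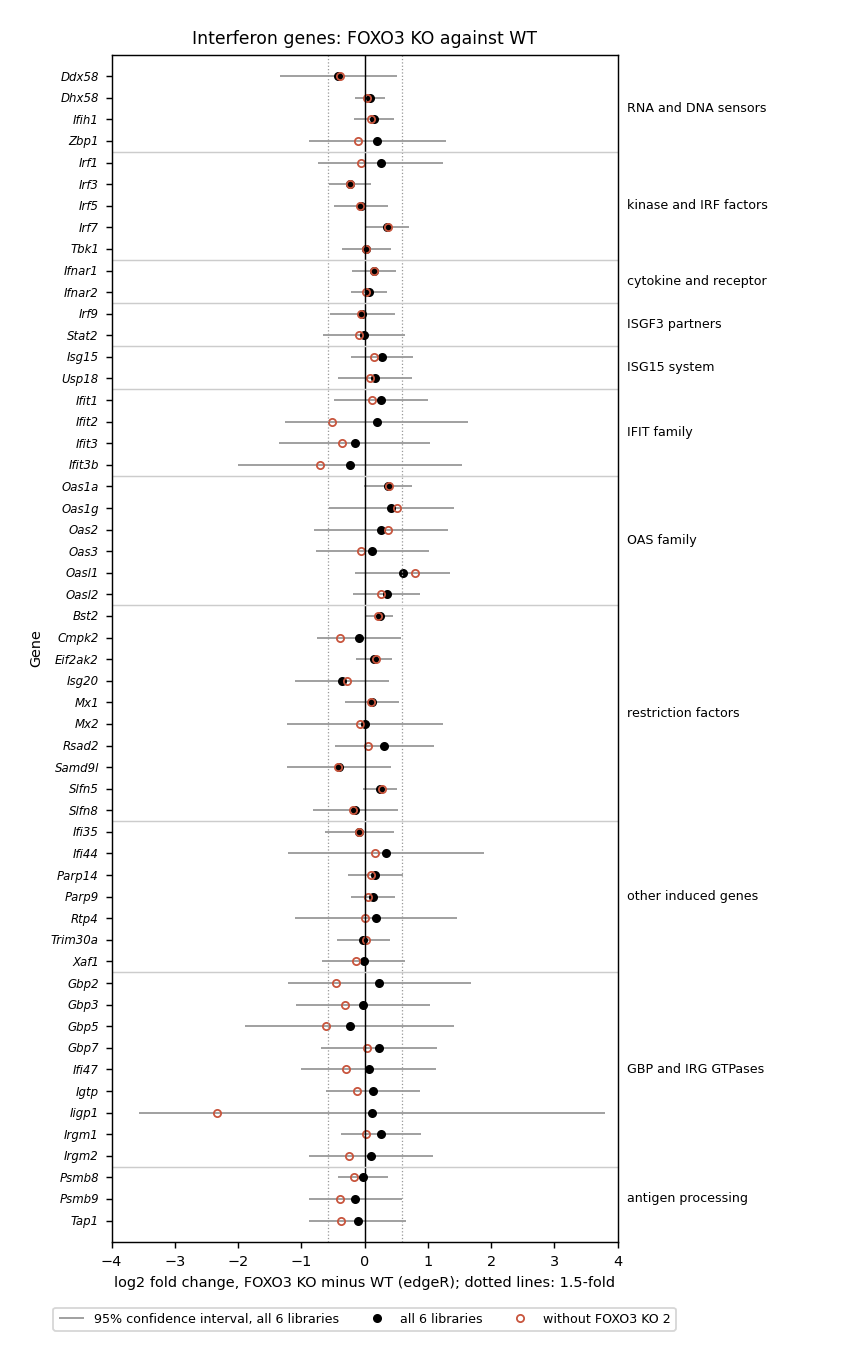
The log2 fold change of each of the 54 tested interferon genes (x axis, FOXO3 KO minus WT, edgeR) is plotted by gene and role (y axis), with filled points and grey 95% confidence intervals for all 6 libraries and open points for the 5 libraries without FOXO3 KO 2. Oasl1 is the 1 member whose filled point lies outside the dotted lines at 1.5-fold, and Iigp1 has the widest interval and the open point farthest to the left.

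The data bounded the size of the differences unevenly. Over 6 libraries the 95% confidence interval of the fold lay inside 0.5 to 2 for 30 of 54 members, and over 5 libraries for 28. For the other 24 members over 6 libraries a change of 2-fold in one direction or the other was within the interval. The spread within groups, as a pooled SD of log2(CPM + 0.5), was larger than the size of the fold change for 45 of 54 members. The same count was not made over all genes, so it is not shown to be particular to the members.

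Compared per length, as RPKM computed with the union of each gene's exons in GENCODE M21 (GRCm38), the members spanned a wide range of levels. Irf5, a factor that drives inflammatory programs in macrophages, had the highest mean (93.9 RPKM in WT and 90.4 in FOXO3 KO), followed in WT by Bst2 (65.3 and 76.9) and Samd9l (54.4 and 41.1). At the low end, Ifi44 had 0.0753 and 0.0953 RPKM and Ifit3b 0.444 and 0.381. In CPM, 11 members averaged over 100 in both groups and 2, Ifi44 and Ifit3b, averaged under 1 in both.

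Of the cytokine and its receptor, only the receptor was measurable. Ifnb1 (chr4:88522025-88522774, minus strand), which encodes interferon beta, had 1 count in WT 3 and 0 in the other 5 libraries, so its level was under the 3-count floor in every library and no difference could be detected at this depth. Ifnar1, the receptor's low-affinity chain, stood at 184.6, 183.6 and 136.9 CPM in WT 1, 2 and 3 compared with 187.2, 184.7 and 185.8 CPM in FOXO3 KO 1, 2 and 3. The 3 KO libraries lay closely together and just above the 2 nearest WT libraries, and WT 3 was lowest. The log2 fold change was 0.14 ± 0.14 (SE, adjusted p = 0.867) over 6 libraries and 0.15 ± 0.19 over 5. Ifnar2, the high-affinity chain, stood at 137, 137 and 116 CPM in WT 1, 2 and 3 compared with 139, 147 and 125 CPM in FOXO3 KO 1, 2 and 3, and the groups overlapped (0.07 ± 0.12 over 6 libraries and 0.02 ± 0.15 over 5, adjusted p = 0.904 over 6). For both receptor genes the 95% interval of the fold over 6 libraries lay within 0.863 to 1.40.

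Among the kinase and the IRF factors, Irf7 was the 1 gene whose groups did not overlap. Irf7 (chr7:141262706-141266481, minus strand), the master regulator of type I interferon genes, stood at 53.4, 60.9 and 55.9 CPM in WT 1, 2 and 3 compared with 61.4, 71.6 and 84.8 CPM in FOXO3 KO 1, 2 and 3. Every KO library was above every WT library, although FOXO3 KO 1 exceeded WT 2 by less than 1 CPM, and the library labelled FOXO3 KO 2, with Foxo3 at the WT level, lay between the other two. The fold was 1.28 (95% confidence interval 1.01 to 1.62) and the log2 fold change 0.36 ± 0.14 (SE), with an unadjusted p of 0.0424 and an adjusted p of 0.839 by the edgeR test. Without FOXO3 KO 2 the log2 fold change was 0.37 ± 0.17, with an unadjusted p of 0.0864. A two-sided exact permutation test of the difference in mean log2(CPM + 0.5) gave p = 0.10 over 6 libraries and p = 0.20 over 5. Each was the smallest value this test, as set up here, could give.

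The groups overlapped for each of the other factors. Irf3, which is present before any stimulus and is activated by TBK1, stood at 57.6, 60.7 and 78.3 CPM in WT 1, 2 and 3 compared with 53.7, 55.4 and 58.1 CPM in FOXO3 KO 1, 2 and 3. WT 3 was above all others, and the groups overlapped only in that FOXO3 KO 3 stood just above WT 1. The Irf3 log2 fold change was -0.23 ± 0.14 (adjusted p = 0.843), and -0.23 ± 0.17 over 5 libraries. Irf1, a factor induced by interferon gamma, spread the most of the 5, with 126, 78.3 and 131 CPM across WT against 64.5, 186 and 149 CPM across KO, and FOXO3 KO 1 and 2 were its lowest and highest libraries. Its log2 fold change was 0.25 ± 0.41 over 6 libraries and -0.06 ± 0.42 over 5. For Irf5 and Tbk1 the log2 fold changes were -0.05 ± 0.17 and 0.02 ± 0.16 (-0.07 ± 0.23 and 0.02 ± 0.21 over 5 libraries), and the highest library exceeded the lowest by less than 1.5-fold in each. The median of the 5 genes was 0.02 over 6 libraries and -0.06 over 5.

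The ISGF3 partners differed less between the groups than among the libraries of a group. Stat2 stood at 77.7, 61.8 and 103 CPM in WT 1, 2 and 3 compared with 56.1, 89 and 95.9 CPM in FOXO3 KO 1, 2 and 3. Its level was lowest in FOXO3 KO 1 and highest in WT 3, and its log2 fold change was -0.01 ± 0.27 (adjusted p = 0.993) over 6 libraries and -0.09 ± 0.32 over 5. Irf9, the DNA-binding partner of STAT2, stood at 74.9, 71.1 and 109.7 CPM in WT 1, 2 and 3 compared with 68.3, 85.8 and 95.4 CPM in FOXO3 KO 1, 2 and 3, with the same libraries at both ends (-0.04 ± 0.21, adjusted p = 0.976, and -0.06 ± 0.26 over 5 libraries).

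Of the 4 sensors, Zbp1 and Ddx58 were likewise spread over the libraries rather than between the groups. Zbp1, a sensor of Z-form nucleic acids that can start necroptosis, had the highest log2 fold change of the 4 over 6 libraries (0.20 ± 0.45) and -0.11 ± 0.48 over 5, with 33.6, 22.6 and 46 CPM across WT against 17.8, 54.5 and 45.2 CPM across KO. Ddx58, which encodes the RNA sensor RIG-I, had the lowest (-0.42 ± 0.38 over 6 libraries and -0.39 ± 0.47 over 5) with 55, 45.5 and 118 CPM across WT against 44.4, 52.5 and 67.1 CPM across KO. WT 3 was well above every other library for Ddx58, and without WT 3 and FOXO3 KO 2 its log2 fold change changed sign. Ifih1, encoding MDA5, and Dhx58, encoding the regulator LGP2, varied by no more than 1.33-fold over the 6 libraries.

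**Figure D2:**
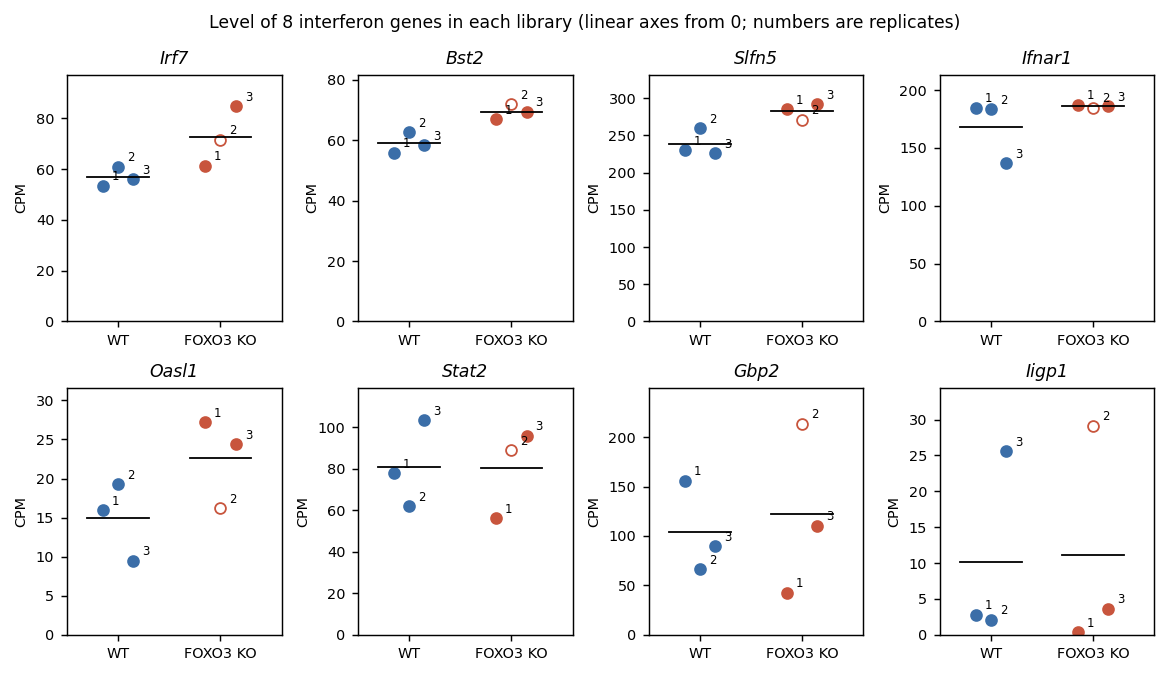
CPM of 8 interferon genes is plotted on linear axes from 0 for each WT library (blue) and FOXO3 KO library (red), numbered by replicate, with the mean of each group as a black line and FOXO3 KO 2 as an open point. For Irf7, Bst2, Slfn5 and Ifnar1 the KO points all lie above the WT points, while for Stat2, Gbp2 and Iigp1 the points of both groups are intermixed.

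The OAS family, most of whose enzymes make the messenger that activates the RNA-cutting enzyme RNase L, was higher in FOXO3 KO in 6 of 6 genes over 6 libraries and in 5 of 6 over 5, with medians of 0.35 and 0.37. None passed the adjusted test (adjusted p from 0.839 to 0.949 over 6 libraries). Oasl1, a repressor of Irf7 translation, had the largest log2 fold change of all members over 6 libraries (0.60 ± 0.31, adjusted p = 0.839). It stood at 16, 19.3 and 9.51 CPM in WT 1, 2 and 3 compared with 27.2, 16.2 and 24.4 CPM in FOXO3 KO 1, 2 and 3, so FOXO3 KO 2 fell among the WT libraries, and without it the groups did not overlap (0.79 ± 0.32, unadjusted p = 0.0531, adjusted p = 0.994). It was the 1 member past 1.5-fold over 6 libraries, where 6.49% of all genes were higher by that much and 9.67% lower. Over 5 libraries it was again the 1 member higher by over 1.5-fold (6.96% of all genes), and Gbp5, Ifit3b and Iigp1 were lower by as much (3 of 54, beside 11.5% of all genes).

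Oas1a stood at 46.2, 64.3 and 49.3 CPM in WT 1, 2 and 3 compared with 62.5, 66.7 and 76.5 CPM in FOXO3 KO 1, 2 and 3, with WT 2 above FOXO3 KO 1 and the other WT libraries below all KO libraries (0.36 ± 0.16, unadjusted p = 0.0574, and 0.38 ± 0.19 over 5 libraries). Its neighbour Oas1g stood at 7.7, 10.8 and 18.6 CPM across WT against 11.4, 14.4 and 23.8 CPM across KO (0.42 ± 0.41 over 6 libraries and 0.51 ± 0.48 over 5). Reads of these neighbours may have been split between them by the authors' counting, so each value is uncertain. This was not tested, and the likeness of their promoters does not bear on it. Oas3 had the smallest difference of the family over 6 libraries (0.12 ± 0.37) and lay below 0 over 5 (-0.05 ± 0.42), with 16.2, 17.4 and 31.5 CPM across WT against 14.1, 29 and 27.6 CPM across KO. Across the family the highest library was FOXO3 KO 3 for 4 genes, FOXO3 KO 1 for Oasl1 and WT 3 for Oas3. With FOXO3 KO 3 left out of the 6 libraries, Oas2 (-0.17) and Oas3 turned below 0, and the rest of the family stayed above 0. With FOXO3 KO 3 left out of the 5 libraries, FOXO3 KO 1 was the single KO library left. In that fit Oas1g (-0.09), Oas2 (-0.37), Oas3 (-0.60) and Oasl2 (-0.17) were below 0, while Oas1a (0.25) and Oasl1 were above 0.

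The ISG15 system was low and even. Isg15, a ubiquitin-like protein that is attached to other proteins after interferon, stood at 5.4, 5.4 and 6.71 CPM in WT 1, 2 and 3 compared with 5.92, 8.14 and 7.02 CPM in FOXO3 KO 1, 2 and 3 (0.27 ± 0.20, adjusted p = 0.852, and 0.15 ± 0.23 over 5 libraries). Usp18, the enzyme that removes ISG15 and dampens the interferon receptor, stood at 7.78, 8.22 and 11.2 CPM in WT 1, 2 and 3 compared with 7.48, 11.2 and 11.8 CPM in FOXO3 KO 1, 2 and 3 (0.16 ± 0.24, adjusted p = 0.901, and 0.09 ± 0.29 over 5 libraries). In both genes 2 KO libraries were near or above the highest WT library while FOXO3 KO 1 was close to WT 1 and WT 2.

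The IFIT family binds viral RNA and is among the most inducible of interferon targets. Here its members were low, and both groups held high and low libraries. Ifit1 had the highest log2 fold change (0.26 ± 0.31 over 6 libraries and 0.11 ± 0.36 over 5), with 5.73, 6.25 and 8.83 CPM across WT against 5.32, 9.93 and 9.65 CPM across KO. Ifit3b had the lowest (-0.23 ± 0.73 and -0.71 ± 0.83), with 0.526, 0.318 and 1.82 CPM across WT against 0.425, 1.2 and 0.66 CPM across KO. The family median was 0.02 over 6 libraries and -0.44 over 5. Ifit2 had 8.89, 7.55 and 16.9 CPM across WT against 4.61, 22.6 and 10.9 CPM across KO, where FOXO3 KO 2 was the highest of all libraries and FOXO3 KO 1 the lowest, and its log2 fold change turned from 0.19 ± 0.60 over 6 libraries to -0.52 ± 0.52 over 5. The neighbours Ifit3 and Ifit3b may share reads, which was not tested, and WT 3 was highest for both.

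Of the 10 restriction factors and other antiviral effectors, 2 had groups that did not overlap. Bst2, which encodes tetherin, a protein that holds budding virions at the cell surface, stood at 55.9, 62.6 and 58.4 CPM in WT 1, 2 and 3 compared with 67, 71.8 and 69.4 CPM in FOXO3 KO 1, 2 and 3. All KO libraries were above all WT libraries, by a fold of 1.18 (95% confidence interval 1.01 to 1.37), with a log2 fold change of 0.24 ± 0.09, an unadjusted p of 0.0362 and an adjusted p of 0.839. Without FOXO3 KO 2 the log2 fold change was 0.21 ± 0.11 and the unadjusted p 0.12.

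Slfn5, a member of the schlafen family of interferon-induced growth regulators, stood at 230.0, 259 and 226 CPM in WT 1, 2 and 3 compared with 285, 271 and 292 CPM in FOXO3 KO 1, 2 and 3. The groups did not overlap (0.24 ± 0.11, unadjusted p = 0.068, adjusted p = 0.839, and 0.27 ± 0.15 over 5 libraries). With Irf7, Bst2, Ifnar1 and Slfn5, 4 of 54 members (7.41%) had every KO library above every WT library, where 7% of all genes did. None had every KO library below every WT library, where 5.36% of all genes did. Over 5 libraries Oasl1 joined the 4 (9.26%, beside 11% of all genes), and Cmpk2 was the 1 member lower without overlap (1.85%, beside 9.23%). Cmpk2, which encodes a mitochondrial nucleotide kinase, stood at 13.9, 13.2 and 17.8 CPM across WT against 9.92, 19.5 and 12.9 CPM across KO, and only with FOXO3 KO 2 left out were the groups apart (-0.39 ± 0.22 over 5 libraries, unadjusted p = 0.135).

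The rest of this group overlapped. Rsad2, encoding the antiviral enzyme viperin, had the highest log2 fold change in it over 6 libraries (0.31 ± 0.32) and 0.06 ± 0.34 over 5, with 26.4, 29.2 and 14.1 CPM across WT against 25.7, 38.1 and 22.6 CPM across KO. Over 5 libraries Slfn5 was the highest of the group. Samd9l, a restriction factor for poxviruses, had the lowest in both fits (-0.40 ± 0.34 and -0.42 ± 0.42), with 222, 204 and 459 CPM across WT against 184, 228 and 257 CPM across KO, where WT 3 was again the highest library by a wide margin. Mx1 and Mx2, GTPases against influenza and other viruses that are known to be defective in most laboratory strains, had log2 fold changes of 0.12 ± 0.18 and 0.01 ± 0.51 over 6 libraries and 0.10 ± 0.22 and -0.08 ± 0.62 over 5. Eif2ak2, which encodes the translation-blocking kinase PKR, had 58.8, 61.8 and 69 CPM across WT against 64.3, 67.4 and 78.7 CPM across KO (0.15 ± 0.12 over 6 libraries and 0.18 ± 0.15 over 5).

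Among 7 other induced genes the log2 fold change over 6 libraries ran from -0.08 ± 0.22 for Ifi35 to 0.34 ± 0.64 for Ifi44. Ifi35 stood at 25.3, 24.6 and 41.1 CPM across WT against 25.5, 29.1 and 31.3 CPM across KO (-0.09 ± 0.27 over 5 libraries). Ifi44, with the fewest reads per length after Ifnb1, stood at 0.249, 0.353 and 0.783 CPM across WT against 0.213, 0.73 and 0.809 CPM across KO (0.16 ± 0.77 over 5 libraries). Rtp4, a chaperone of receptors that interferon induces strongly, stood at 16.1, 12.1 and 43.1 CPM across WT against 15.9, 33.1 and 31.8 CPM across KO (0.18 ± 0.53 over 6 libraries and 0.01 ± 0.63 over 5). In Ifi35, Ifi44 and Rtp4 alike, WT 3 exceeded the other WT libraries. Parp9 and Parp14, ADP-ribosyltransferases of macrophage activation, varied by at most 1.5-fold over the libraries.

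The GBP and IRG GTPases had the largest median pooled SD of the role groups (0.67 on the log2 scale, closely followed by the IFIT family at 0.65), so libraries with the same label stood far apart. Over 6 libraries 7 of 9 had a log2 fold change above 0, with a median of 0.12, and over 5 libraries 2 of 9 did, with a median of -0.29. FOXO3 KO 1 was the lowest library for 8 of the 9 genes and FOXO3 KO 2 the highest for 7. Irgm1 had the highest log2 fold change over 6 libraries (0.26 ± 0.26) but 0.02 ± 0.24 over 5, with 69.4, 60.1 and 73.5 CPM across WT against 51.6, 106 and 85.6 CPM across KO. Gbp5, which helps assemble the inflammasome, had the lowest over 6 libraries (-0.24 ± 0.68) and -0.60 ± 0.79 over 5, with 16.8, 8.47 and 39.3 CPM across WT against 6.77, 26.6 and 21.5 CPM across KO.

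Gbp2 and Iigp1 were picked after their values were seen, because their KO libraries lay farthest apart. Gbp2, a protein that coats pathogen vacuoles, stood at 156, 66.3 and 89.9 CPM in WT 1, 2 and 3 compared with 42.6, 214 and 110.2 CPM in FOXO3 KO 1, 2 and 3, so 2 libraries with the same label bracketed all 4 others. The 95% confidence interval of its fold over 6 libraries was 0.43 to 3.2, and its log2 fold change turned from 0.23 ± 0.60 to -0.45 ± 0.54 without FOXO3 KO 2. Iigp1, an effector IRG that breaks the vacuole of Toxoplasma, stood at 2.8, 2.12 and 25.6 CPM in WT 1, 2 and 3 compared with 0.39, 29.2 and 3.63 CPM in FOXO3 KO 1, 2 and 3, a 74.8-fold range. WT 3 and FOXO3 KO 2 were high and the other 4 libraries low. Its log2 fold change was 0.12 ± 1.52 over 6 libraries and -2.33 ± 1.53 (adjusted p = 0.994) over 5. With the Xist split as a covariate in the fit over 5 libraries, it became the 1 member called, at a log2 fold change of -2.75 and an adjusted p of 0.0496 (1 of 54 members, 1.85%, beside 0.105% of all genes), while over 6 libraries with the same covariate the log2 fold change was 1.10 (adjusted p = 0.818). Without FOXO3 KO 2, each side of that split held a single KO library. FOXO3 KO 3 was below WT 3, and FOXO3 KO 1, with 11 counts of Iigp1, was below WT 1 and WT 2. Igtp, an IRG that guards host membranes from attack, stood at 31.5, 28.1 and 41 CPM across WT against 22, 49.1 and 39.3 CPM across KO (0.13 ± 0.31), and without FOXO3 KO 2 its log2 fold change turned to -0.13 ± 0.30. Igtp and Irgm2 overlap on the same strand of chromosome 11 in the annotation, so reads of the pair may be shared and both values are uncertain.

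The antigen-processing genes, which supply peptides for MHC class I, followed the same libraries. The log2 fold change was below 0 for 3 of 3 in both fits, with medians of -0.11 and -0.37. Psmb8, an immunoproteasome subunit, stood at 81.3, 76.2 and 88.5 CPM across WT against 64.4, 96.6 and 80.7 CPM across KO (-0.03 ± 0.16, adjusted p = 0.978, and -0.18 ± 0.15 over 5 libraries). Psmb9, another such subunit, stood at 40.9, 36 and 57.3 CPM across WT against 25.7, 53.2 and 42.5 CPM across KO (-0.15 ± 0.30, adjusted p = 0.919, and -0.39 ± 0.30 over 5 libraries). FOXO3 KO 1 was the lowest library for all 3, Tap1 included. The Psmb9 and Tap1 loci overlap on opposite strands of chromosome 17, and the sources used here do not say whether strand was used in counting.

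**Figure D3:**
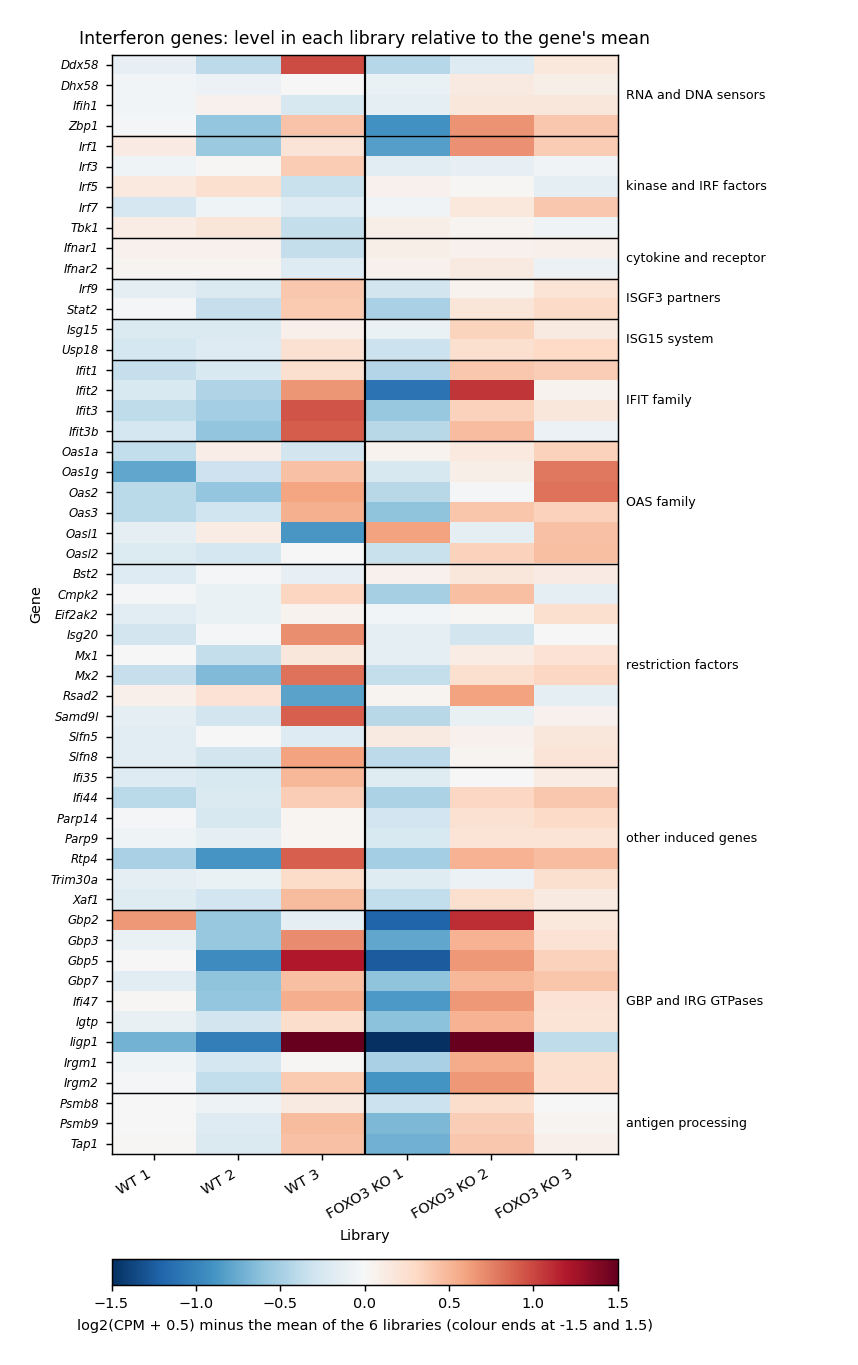
Each row is an interferon gene, grouped by role, each column a library, and the colour gives log2(CPM + 0.5) minus the gene's mean over the 6 libraries, from blue (lower) to red (higher), ending at -1.5 and 1.5. The WT 3, FOXO3 KO 2 and FOXO3 KO 3 columns are mostly red and the FOXO3 KO 1 column mostly blue, with the strongest colours in the GBP and IRG rows.

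The members' levels differed among libraries with the same label. FOXO3 KO 1 was the lowest library for 32 of 54 members, 59.3%, while it was lowest for 19.6% of all genes tested. FOXO3 KO 2 was highest for 20 (37.0%, beside 10.9% of all genes) and WT 3 for 19 (35.2%, close to the 37.2% of all genes). The median of the members relative to each gene's mean was -0.15, -0.23 and 0.35 on the log2 scale in WT 1, 2 and 3 and -0.36, 0.24 and 0.20 in FOXO3 KO 1, 2 and 3. The same median over all genes lay between -0.01 and 0.01 in every library. Each group thus held libraries on both sides of 0.

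**Figure D4:**
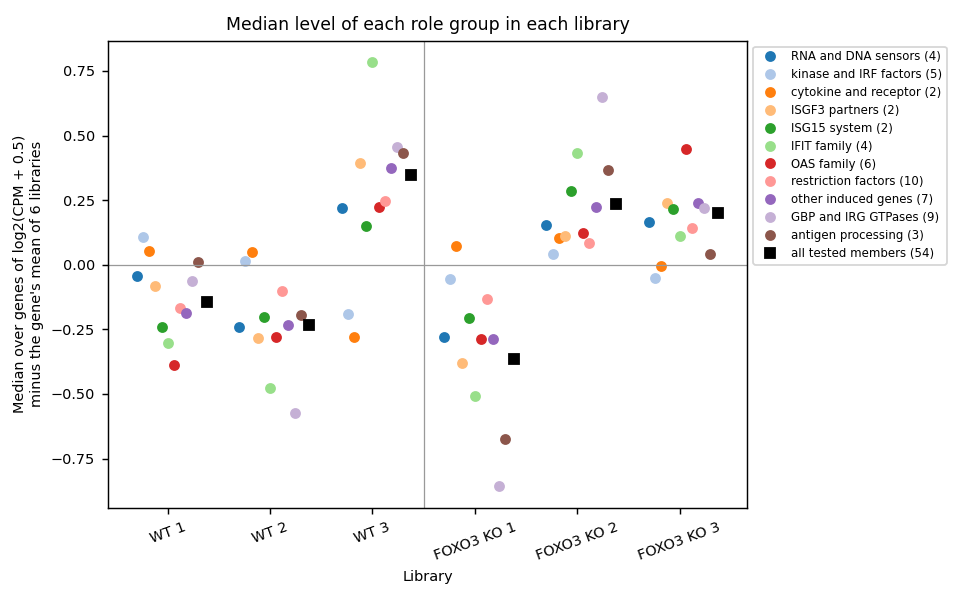
For each library (x axis) the points give the median over the genes of each role group of log2(CPM + 0.5) minus the gene's mean over the 6 libraries (y axis), with the number of genes in brackets and black squares for all 54 tested members. The black squares stand at 0.35 in WT 3 and 0.24 and 0.20 in FOXO3 KO 2 and 3, above those of WT 1, WT 2 and FOXO3 KO 1, and the farthest points are the IFIT family in WT 3 (0.78) and the GBP and IRG genes in FOXO3 KO 1 (-0.86).

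The pooled SD of log2(CPM + 0.5) within groups had a median of 0.40 over the members, beside 0.24 over all genes and 0.17 over the 4667 genes within the middle range of the members' mean CPM. The level of the highest KO library was more than 2-fold that of the lowest for 20 members, and the same held for 20 members within WT. Neither of these counts was made over all genes. The role groups shared the members' order of libraries to different degrees. The IFIT and the GBP and IRG groups had medians of 0.78 and 0.46 in WT 3, of -0.51 and -0.86 in FOXO3 KO 1 and of 0.43 and 0.65 in FOXO3 KO 2, whereas the receptor genes stood at -0.28 in WT 3 and at 0.07 and 0.10 in these KO libraries.

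Within the Xist split the direction of the members depended on which libraries were set against each other. Between the libraries with Xist, FOXO3 KO 3 minus WT 3 had a median of -0.03 on the log2 scale over the members, with 26 of 54 higher, beside 50.5% of all genes. Among the libraries without it, the mean of FOXO3 KO 1 and 2 minus that of WT 1 and 2 had a median of 0.17, with 44 of 54 higher, beside 47.5% of all genes. With the library labelled FOXO3 KO 2 left out, FOXO3 KO 1 minus WT 1 and 2 had a median of -0.13, with 17 of 54 higher, beside 48.6% of all genes. In the GBP and IRG group 8 of 9 genes were higher in the second of these contrasts and 0 of 9 in the last.

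Of 92 further genes in a list of signalling genes, relatives and targets outside the 55, 91 were in the table and 80 could be tested. None passed the adjusted test over 6 or 5 libraries. The log2 fold change was above 0 for 38 and below 0 for 42 over 6 libraries, with a median of -0.03, and above 0 for 26 and below 0 for 54 over 5, with a median of -0.11. At an unadjusted p under 0.05, 4 were higher over 6 libraries (Ifitm1, Ifitm6, Ifi205 and Cxcl10), 2 over 5 (Ifitm1 and Ifitm6) and 0 lower in either. The higher ones were 5% and 2.5% of the 80, beside 4.04% and 3.05% of all genes, and 1.65% and 1.26% of all genes were lower. Ifitm6, of the family of membrane proteins that block virus entry, stood at 60.5, 61.5 and 63.8 CPM across WT against 71.8, 72.4 and 83.0 CPM across KO (0.29 ± 0.10, adjusted p = 0.777). Its relative Ifitm1 stood at 5.71, 6.10 and 1.73 CPM across WT against 23.1, 4.74 and 23.3 CPM across KO, so that FOXO3 KO 2 had Ifitm1, like Foxo3, among the WT values. Over 5 libraries its log2 fold change was 2.36 ± 0.54 with an unadjusted p of 0.00657 and an adjusted p of 0.793.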

How the data were processed

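RNA from peritoneal macrophages of 3 WT and 3 FOXO3 KO mice was sequenced in paired 76-base reads. The authors deposited estimated counts per gene symbol without normalization. The submitters' processing notes name mm10, STAR 2.6.1d, kallisto 0.46.0 and DESeq2 without saying which step each served, and the annotation is not given in the sources used here. All values were rounded to whole counts before fitting (81.4% were already within 0.01 of one).

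Groups followed the labels. Nothing in the labels says how the replicates relate beyond their being separate samples, so p-values measure the spread between these samples. Counts were fitted with edgeR 4.0.16 in R 4.3.3 (filterByExpr, TMM, glmQLFit and glmQLFTest) across all genes, with Benjamini-Hochberg adjustment, over 6 libraries (15608 genes) and over 5 without FOXO3 KO 2 (16217 genes). A call needed a fold over 1.5 together with an FDR under 0.05, as in the study, and a second rule took an unadjusted p under 0.05. The study reported genes passing its rule, Foxo3 among them, in its own fit, which was not repeated here. Standard errors were derived from each log2 fold change and its F statistic. Levels are CPM of the TMM-scaled library, with 0.5 added before log2. Every library pair differed by more than sampling noise (chi-square per degree of freedom of at least 13.1). Alternatives were DESeq2 1.42.0, limma-voom (limma 3.58.1), other scalings and filters, covariates and left-out libraries. Values in each library are given for Irf7, Ifnb1, Stat2, Irf9, members with an unadjusted p under 0.05 or groups that do not overlap, and the highest and lowest log2 fold change of each role group, and those of Irf1, Oas1a, Oas1g, Ifit2, Eif2ak2, Rtp4, Gbp2, Igtp and Iigp1 were added after their values were seen. The members and lists were chosen with earlier results of these data known. Promoters were searched and figures drawn in Python 3.11.15.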

Additional observations from a re-analysis of the deposited data

How the results depend on the processing

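The count of members called over 6 libraries was 0 in the main fit and in all 17 alternatives. Over 5 libraries it was 0 except with the replicate block, which called 1, and with the Xist covariate, which also called 1, Iigp1 in both (1.85% of members, beside 1.75% of all genes with the block and 0.105% with the covariate, log2 fold change -2.82, adjusted p = 0.0132, and -2.75, adjusted p = 0.0496). In the block fit over 5 libraries WT 2 had no KO library of its number, so the difference rested on numbers 1 and 3. The Xist fit over 5 libraries had a single KO library on each side of the split. Both fits thus left few libraries to measure the spread, and Iigp1 had 11 counts in FOXO3 KO 1. The labels do not say whether replicate numbers pair the samples, and correlations among so few libraries cannot decide it. Deviations of same-numbered WT and KO libraries correlated at 0.339, -0.0612 and 0.567 for numbers 1, 2 and 3. FOXO3 KO 1 correlated best with WT 2 (0.611). Number 2 involves the KO library with Foxo3 at the WT level, and WT 3 and FOXO3 KO 3 also share Xist. Members with an unadjusted p under 0.05 over 6 libraries, 2 in the main fit, numbered 0 by the likelihood ratio test, 1 by limma-voom, 0 with plain library sizes, and 0 to 5 with a library left out (0 without WT 1, FOXO3 KO 2 or FOXO3 KO 3, 5 without WT 2 and 4 without WT 3). Over 5 libraries the main count of 0 became 1 (Oasl1) by likelihood ratio test, DESeq2, limma-voom, upper-quartile factors, plain library sizes or no filter. It was 10 with the replicate block (18.5% of members, beside 15.3% of all genes) and 8 with the Xist covariate (14.8%, beside 14.5%). Of the 10, 8 were lower in FOXO3 KO (14.8% of members, beside 9.22% of all genes) and 2 higher (3.7%, beside 6.05%). Of the 8 with the covariate, 7 were lower (13%, beside 8.66%) and 1 higher (1.85%, beside 5.86%). With a WT library left out the count was 0 to 2. The causes were not tested.

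The members' median log2 fold change ran from -0.06 (without FOXO3 KO 2) to 0.27 (without WT 3) over 6 libraries. Over 5 libraries it ran from -0.37 (without FOXO3 KO 3) to 0.21 (without FOXO3 KO 1), both from fits with a single KO library left. Leaving out WT 3 changed the sign of 18 of 54 members over 6 libraries, leaving out FOXO3 KO 1 of 14, and leaving out both WT 3 and FOXO3 KO 2 of 20, whereas tests, scalings and filters changed at most 3. The log2 fold change of Irf7 ran from 0.23 to 0.46 over 6 libraries and from 0.13 to 0.57 over 5. Every KO library was above every WT library for Irf7, so leaving libraries out could not turn its sign. Both ends over 5 libraries come from fits with a single KO library left. Foxo3 passed the adjusted test at -4.64 with WT 3 and FOXO3 KO 2 both left out, and over 5 libraries at -4.46 by the likelihood ratio test and by DESeq2, -4.45 without a filter, -4.36 with the replicate block and -4.35 with the Xist covariate, and ranged from -4.64 to -4.33 with a library left out. With 3 samples a group, the intervals of 24 of 54 members over 6 libraries still held a 2-fold difference.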
